A study of Rattus norvegicus with 102 samples.

Results

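The genes described here process peptides for MHC class I, the surface complex that shows fragments of a cell's own proteins to CD8 T cells. They were B2m, Tap1, Tap2, Tapbp, Psmb8, Psmb9, Psmb10 and Nlrc5, found in the tables by symbol with no threshold on their values, although earlier results of these data were known when they were chosen. They made up 8 of the genes in the Illumina table, which listed 26284 identifiers, and stood under 9 identifiers because Tap2 was listed under 2. CA1, CA3 and the dentate gyrus (DG) of 34 male Fisher 344 rats had been sequenced, with 1 library per rat and subfield in each of 3 tables. Young rats (n = 10) were 5 to 6 months old. Aged rats (n = 24) were 17 to 22 months old, and their performance in a water maze placed 12 in an unimpaired and 12 in an impaired group. The labels named no allele or agent in any group, so groups differed by age and maze class. Each library came from a dissected subfield with all of its cell types, so a lower number of cells of a type and less RNA per cell cannot be told apart. Values are normalised read counts of the Illumina poly-A table unless the Ion Proton table is named, and errors are SD. The Ion Proton table measured RNA of the same rats again and is no second set of animals.

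Class I molecules consist of a heavy chain and the light chain beta-2 microglobulin, which B2m encodes. The peptides come mostly from the proteasome, and in the immunoproteasome the interferon-inducible catalytic subunits encoded by Psmb8, Psmb9 and Psmb10 take the places of the constitutive subunits encoded by Psmb5, Psmb6 and Psmb7. Tap1 and Tap2 encode both chains of the transporter that carries peptides into the endoplasmic reticulum, and Tapbp encodes tapasin, which holds an empty class I molecule at this transporter. Nlrc5 encodes a transactivator that acts on class I promoters. In the brain, microglia and vascular cells are known to carry much of the class I machinery, and class I molecules in neurons are known for a part in synapse remodelling.

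Promoters of these genes are known for interferon-response and CCAAT elements, so the letters of 4 promoters are shown for the genes whose values the results turn on and for Psmb10, the member with the smallest change in DG. RefSeq promoter windows of build GRCr8, which run from 250 bases before to 50 bases after a gene's start, were matched by symbol for 7 of the 8 genes. Nlrc5 was not matched. Capitals mark the interferon-response pattern of 2 GAAA blocks with 2 bases of any kind between them, and the pattern CCAAT, on either strand, and each window is written 5′ to 3′ on its gene's strand. The windows are those of Tap1 (chr20:4668494-4668793, minus strand), Psmb9 (chr20:4668750-4669049, plus strand), B2m (chr3:129549080-129549379, plus strand) and Psmb10 (chr19:50743243-50743542, minus strand).
Tap1: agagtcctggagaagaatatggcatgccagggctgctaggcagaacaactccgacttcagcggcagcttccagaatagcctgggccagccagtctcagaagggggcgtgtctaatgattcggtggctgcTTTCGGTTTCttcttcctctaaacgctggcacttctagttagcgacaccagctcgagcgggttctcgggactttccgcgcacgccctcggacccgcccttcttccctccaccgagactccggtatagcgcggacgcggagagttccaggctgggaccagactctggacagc
Psmb9: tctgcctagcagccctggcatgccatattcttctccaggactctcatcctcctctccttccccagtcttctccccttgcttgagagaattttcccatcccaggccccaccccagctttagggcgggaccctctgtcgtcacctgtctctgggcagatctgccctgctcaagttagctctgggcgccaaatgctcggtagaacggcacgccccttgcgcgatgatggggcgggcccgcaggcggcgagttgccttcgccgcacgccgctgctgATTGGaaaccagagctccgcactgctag
B2m: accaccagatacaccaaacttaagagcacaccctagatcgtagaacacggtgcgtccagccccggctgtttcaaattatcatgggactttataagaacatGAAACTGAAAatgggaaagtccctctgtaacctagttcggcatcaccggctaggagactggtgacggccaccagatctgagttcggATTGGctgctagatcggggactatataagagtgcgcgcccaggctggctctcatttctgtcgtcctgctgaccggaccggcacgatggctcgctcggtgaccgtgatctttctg
Psmb10: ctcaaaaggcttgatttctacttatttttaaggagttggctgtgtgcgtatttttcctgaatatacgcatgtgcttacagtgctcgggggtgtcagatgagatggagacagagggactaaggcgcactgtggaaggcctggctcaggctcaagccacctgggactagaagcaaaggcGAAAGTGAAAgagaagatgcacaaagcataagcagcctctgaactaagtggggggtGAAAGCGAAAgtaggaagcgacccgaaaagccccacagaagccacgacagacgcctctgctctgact

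Tap1 and Psmb9 lie head to head on chromosome 20, with starts 456 bases apart on opposite strands, and their windows share 44 bases. The paired GAAA pattern was found in 6 of the 7 windows, against 3.92% of the 33469 rat promoters searched. It began 121 bases before the start of Tap1, 150 before B2m, 41 before Tap2 and 4 before Psmb8. Tapbp had matches 26 and 20 bases before its start and Psmb10 had them 73 and 17 bases before, while Psmb9 had none in its window. CCAAT was found in 3 windows (B2m, Psmb8 and Psmb9) against 37.5% of promoters, and TGACG in 2 (B2m and Psmb9) against 21.2%. GGGCGG stood in 3 (Tap1, Tapbp and Psmb9) against 33.1%, TTCNNNGAA in 1 (Psmb8) against 8.87%, and the NF-kappaB pattern in 3 (B2m, Tap1 and Tapbp) against 7.51%. All patterns were searched on both strands. A match describes letters only.

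Illumina libraries held 3.25 to 42.8 M reads assigned to genes (median 10.7 M), and Ion Proton libraries 4.47 to 21.4 M (median 9.74 M). All 3 libraries of 7 rats (3 young, 2 unimpaired and 2 impaired) held at least 28.0 M Illumina reads. By their marker genes, 11 Illumina libraries lay nearer to another subfield than to their label in both poly-A tables, of which 1 was young, 7 unimpaired and 3 impaired. They were 1 CA1, 6 CA3 and 4 DG libraries. The CA3 library of young rat R9876 also stood apart, with a summed level of leptomeningeal markers of 26469.6 against a CA3 median of 687. Calls that changed without the libraries of either kind are given with and without them, as are those CA3 age changes of members and of the gene lists given here that moved by more than 1.5 times without that of R9876. Rat numbers fell into a series below 9000 (5 young and 13 aged rats) and one from 9000 up (5 young and 11 aged), and age values within each series are given where a call differed from the pooled one. The animals came from different suppliers for a pair of testing sites whose group sizes match those of the series. No label ties a rat to a site, so number series and site cannot be told apart. The lowest read number behind a value in an Illumina library was 8 for Psmb9, 7 for Psmb8, 11 for Nlrc5 and 28 for Tap1, and it was 772 for B2m. In the Ion Proton table it was 0 for Psmb9, 2 for Psmb8, 4 for Nlrc5, 23 for Tap1 and 541 for B2m.

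The first comparison asked how the class I genes differed with age within each subfield. Tap1 and Psmb9 rose in DG of aged rats, by 1.33-fold and 1.49-fold, and Tap1 rose in CA1 by 1.27-fold. No member passed in CA3, and no member fell in any subfield. A gene passed when its limma p was under 0.01 in the Illumina table and when the Ion Proton table gave a one-sided p under 0.05 with the same sign. By this rule 2 of the 7 tested members rose in DG, where 0.92% of the 14019 genes tested did. In CA1 1 of 7 rose against 0.676% of 14191 genes, and in CA3 0 of 7 against 0.337% of 14246. An Illumina p under 0.05 in the higher direction was reached by 5 members in DG against 3.4% of genes, by 6 in CA1 against 4.13%, and by 0 in CA3 against 1.92%. edgeR and DESeq2 on the recovered reads also called 0 members in CA3. After adjustment over all genes, 2 members in DG kept a limma adjusted p under 0.05, against 0.285% of genes, and 0 in CA1 (0.338%) and CA3 (0%). Without the 11 libraries nearer to another subfield the counts by the 2-table rule were again 2 in DG, 1 in CA1 and 0 in CA3. Within a number series the genes that passed were others in part, with B2m and Tap1 in DG below 9000, Psmb8 in DG from 9000 up and Tapbp in CA1 from 9000 up.

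The median aged minus young log2 change of the 7 members was 0.39 in DG, beside -0.0015 over all genes tested, and 6 of 7 were above 0. In CA1 the median was 0.34 beside -0.0045, with 7 of 7 above 0, and in CA3 it was 0.095 beside -0.014, with 5 of 7. The CA3 values moved with the library of young rat R9876, without which the median was 0.17 with 7 of 7 above 0, 1 member (B2m) had an unadjusted p under 0.05 (3.45% of genes did, in either direction), and again 0 passed the rule. The Ion Proton table gave 0.39 in DG, 0.34 in CA1 and 0.24 in CA3. All log2 changes were computed as log2(value + 1), so those of weakly expressed genes are understated.

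**Figure D1:**
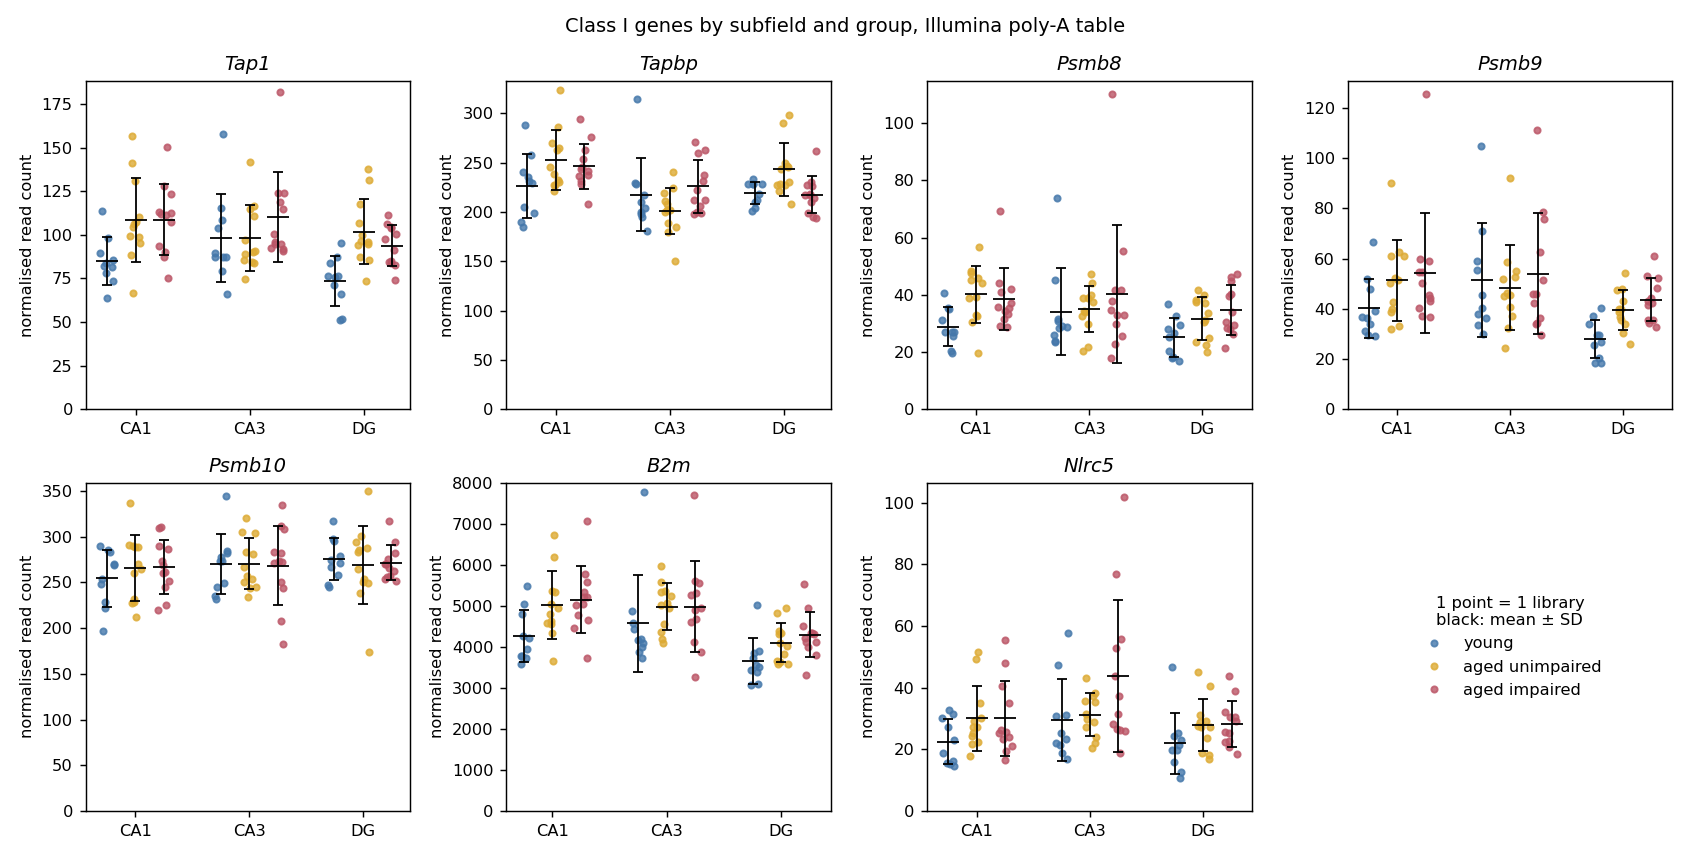
Normalised read count of each of the 7 tested class I genes in every Illumina library, by subfield and by group (young, aged unimpaired and aged impaired), with the group mean and SD. In DG the aged libraries of Psmb9 lay between 26.0 and 60.9 and the young between 18.2 and 40.5, so that groups are shifted but overlap.

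Tap1, a chain of the peptide transporter, had 51.2 to 95.6 with a median of 76.0 in DG of young rats and 73.7 to 138 with a median of 96.2 in aged rats. All 10 young libraries lay below the aged median and 13 of 24 aged libraries above the highest young one, although the groups overlapped. Means were 73.6 ± 14.3 and 97.8 ± 15.9, a log2 change of 0.41 (SE 0.092, 95% interval 0.23 to 0.60, limma p = 6.41e-05, adjusted p = 0.0264). The Ion Proton change was 0.64 with a one-sided p of 0.00148, and 20 of 24 aged libraries lay above the young median there. Over 11 alternatives that changed the DG fit the adjusted p was 0.00888 to 1, and the change passed in 9. The call was lost in the WT table, a further table of the same rats with no stated library type (0.10, p = 0.516), and within the rats numbered from 9000 up (0.19, limma p = 0.0403), while below 9000 the change was 0.63.

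In CA1 the values of Tap1 ran from 63.8 to 114 with a median of 83.2 in young and from 66.6 to 157 with a median of 107 in aged rats. 22 of 24 aged libraries lay above the young median, and 6 above the highest young library. Means were 85.0 ± 13.6 and 109 ± 21.8, a log2 change of 0.34 (95% interval 0.14 to 0.54, p = 0.00175). It passed the 2-table rule with an Ion Proton change of 0.53 (one-sided p = 0.00882), while the limma adjusted p over all genes was 0.204 (0.0794 to 0.811 over the alternatives). The Illumina p rose above 0.01 in the WT table (0.32), without the deeply sequenced rats (0.27), and within both number series (0.33 below 9000 and 0.36 from 9000 up). In CA3 the difference was within the spread, at 98.3 ± 25.4 in young and 104 ± 23.1 in aged rats, a log2 change of 0.095 (95% interval -0.13 to 0.32), and of 0.17 without the library of R9876 (p = 0.11). Leaving out each rat in turn gave CA3 changes of 0.037 to 0.17.

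Tap2, the other chain of the transporter, was below the minimum mean of 10 set for the Illumina table and so was tested there in the fit with no such filter. Its first identifier (ENSRNOG00000000455) averaged 6.50 ± 3.36 over all libraries of the table and had 3 reads or fewer in 22 of them. The second (ENSRNOG00000046031) averaged 0.192 ± 0.410 and had 3 reads or fewer in every library, so no change is read from it there. For the first, Illumina means in CA1 were 3.98 ± 1.99 in young and 6.68 ± 3.98 in aged rats, and 21 of 24 aged libraries lay above the young median and 6 above the highest young one. In DG they were 5.72 ± 3.57 and 7.64 ± 3.46, with 19 of 24 above the young median. The log2 changes with no filter were 0.42 in DG (p = 0.105), 0.57 in CA1 (p = 0.0838) and -0.018 in CA3 (p = 0.947), and none passed the rule. In CA1 unimpaired rats were at 0.91 against young rats (limma p = 0.0045), which missed the rule with an Ion Proton one-sided p of 0.0894. In the Ion Proton table the same identifiers averaged 54.7 ± 20.9 and 52.0 ± 19.3, so the measured level of Tap2 depended on the table. How reads common to the identifiers were divided is not given in the sources used here. Ion Proton values of the first identifier in DG ran from 20.2 to 109.5 with a median of 41.6 in young and from 30.9 to 101.5 with a median of 52.8 in aged rats, which overlap over nearly their whole range. The young maximum was that of rat R2221 alone, and the next young library had 60.0. The aged minus young log2 change of this identifier was 0.38 in DG (p = 0.0558), 0.40 in CA1 (p = 0.0592) and 0.28 in CA3 (p = 0.187). For the second identifier the changes were 0.22, 0.34 and 0.34, and none reached a p of 0.05 in limma.

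Psmb9, an inducible catalytic subunit, showed the largest log2 change among the members in DG. Its values ran from 18.2 to 40.5 with a median of 28.1 in young and from 26.0 to 60.9 with a median of 40.8 in aged rats. 23 of 24 aged libraries lay above the young median and 12 above the highest young library. Means were 28.0 ± 7.70 and 41.6 ± 8.39, a log2 change of 0.58 (SE 0.12, 95% interval 0.33 to 0.82, limma p = 3.01e-05, adjusted p = 0.0163). The Ion Proton change was 0.79 (one-sided p = 0.00329), where 16 of 24 aged libraries exceeded every young one. Over these 11 alternatives the adjusted p was 0.00196 to 1, and the change passed in 8. It missed the rule in the WT table (0.37, p = 0.0139) and in each number series alone, with changes of 0.68 below 9000 and 0.48 from 9000 up.

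In CA1 Psmb9 had 40.2 ± 11.9 in young and 52.7 ± 19.98 in aged rats, a log2 change of 0.36 (p = 0.026) that missed the rule, with 0.34 in the Ion Proton table. The highest CA1 library (125, impaired rat R2231) also had the highest summed leptomeningeal level of its subfield, 9890.1 against a median of 657. In CA3 the means were 51.3 ± 22.7 and 51.2 ± 20.5, a log2 change of 0.0068 with an interval of -0.38 to 0.39. Without the CA3 library of young rat R9876, which had 105 normalised reads of Psmb9, the CA3 change was 0.13. With each rat left out in turn it ran from -0.066 to 0.13.

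Psmb8, which replaces Psmb5 in the core, had higher means in aged rats of every subfield and missed the rule in each. In DG it had 16.8 to 36.6 with a median of 25.8 in young and 19.95 to 47.4 with a median of 32.3 in aged rats. The log2 change was 0.39 (limma p = 0.00655, adjusted p = 0.472), with 0.39 and a one-sided p of 0.0626 in the Ion Proton table. In CA1 the values were 19.5 to 40.7 with a median of 27.1 in young and 19.6 to 69.5 with a median of 38.0 in aged rats, and 23 of 24 aged libraries lay above the young median. The CA1 change was 0.42 (limma p = 0.00293, adjusted p = 0.268) and the Ion Proton one-sided p was 0.0771. edgeR and DESeq2 on the recovered reads put Psmb8 past the rule in both subfields, with Ion Proton one-sided p-values of 0.0127 and 0.0108 in DG and 0.0283 and 0.0204 in CA1. With rats left out in turn, Psmb8 passed in DG without any 1 of 7 rats (0.39 to 0.42) and in CA1 without rat R1930 or rat R2233 (0.43 and 0.44). In DG it also passed within the rats numbered from 9000 up (0.44, limma p = 0.00884, Ion Proton one-sided p = 0.0234), and below 9000 the change was 0.36 (p = 0.0909). CA3 means were 34.1 ± 15.3 and 37.6 ± 17.8, a log2 change of 0.13, and of 0.26 without R9876. Over all omissions of a single rat the CA3 change ran from 0.056 to 0.26.

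Psmb10 had the smallest log2 change of the inducible subunits in DG and in CA1. In DG it had 275 ± 23.1 in young and 270.4 ± 32.4 in aged rats, a log2 change of -0.032 (95% interval -0.16 to 0.096, p = 0.617). The changes were 0.065 in CA1 (95% interval -0.070 to 0.20) and -0.0049 in CA3 (95% interval -0.15 to 0.14, 0.035 without R9876). Whether the age change of Psmb10 differs from that of Psmb9 was not tested.

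**Figure D2:**
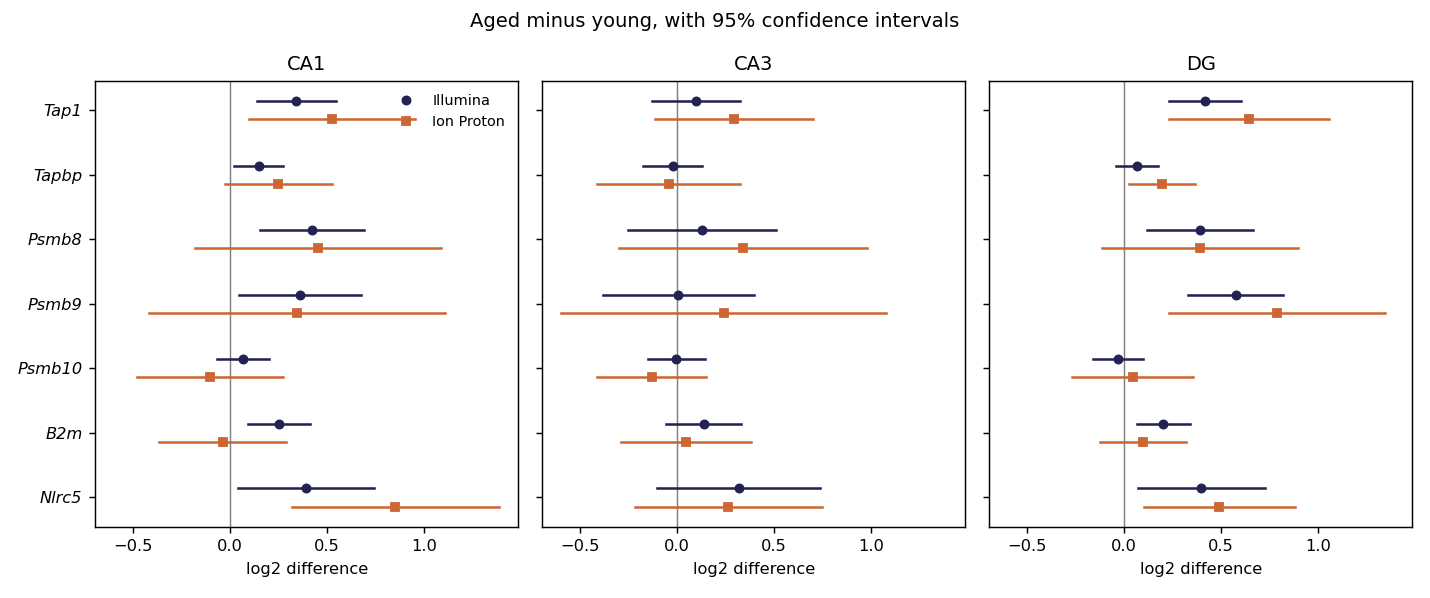
Aged minus young log2 change of the 7 tested class I genes in CA1, CA3 and DG, from the Illumina and the Ion Proton table, with 95% confidence intervals (24 aged and 10 young rats). In DG, Psmb9 lies at 0.58 and Tap1 at 0.41 in the Illumina table, and Psmb10 at -0.032 with an interval that spans 0.

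B2m, the light chain shared by all class I molecules, had 3071 to 5015 with a median of 3540.2 in DG of young and 3327 to 5536 with a median of 4175 in DG of aged rats. 23 of 24 aged libraries lay above the young median but 1 above the highest young library. The log2 change was 0.20 (limma p = 0.00421, adjusted p = 0.388) and the Ion Proton table gave 0.097 (one-sided p = 0.191). With each rat left out in turn, the Illumina change ran from 0.18 to 0.25 (limma adjusted p 0.0369 to 0.714). Below 9000 it passed (0.24, limma p = 0.00149, Ion Proton one-sided p = 0.0289), and from 9000 up the change was 0.18 (p = 0.0624). In CA1 the means were 4265 ± 642 and 5091 ± 802, with a log2 change of 0.25 (limma p = 0.00319) against -0.039 in the Ion Proton table. CA3 had 4577 ± 1175 and 4985 ± 861, with a log2 change of 0.14 (p = 0.164). Without the CA3 library of rat R9876, which held 7775 normalised reads of B2m, the CA3 change was 0.22 (p = 0.0114), against 0.15 in the Ion Proton table (one-sided p = 0.184).

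Tapbp, the gene of tapasin, had 226 ± 32.2 in CA1 of young and 249.5 ± 26.5 in CA1 of aged rats. Its CA1 log2 change was 0.15 (p = 0.0233), which missed the rule, with 0.25 in the Ion Proton table (one-sided p = 0.0386). The CA1 change was 0.015 below 9000 (p = 0.835) and 0.28 from 9000 up (p = 0.00675, Ion Proton one-sided p = 0.0177), where it passed. Whether the series differed was not tested. Without rat R2176 the change was 0.19 and passed. In DG the means were 219 ± 11.5 and 230.3 ± 26.0 (log2 change 0.064), and in CA3 they were 218 ± 37.1 and 213 ± 27.6 (log2 change -0.024, and 0.037 without R9876).

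Nlrc5, the class I transactivator, had higher means in aged rats in all 3 subfields and passed the rule in none. In DG the values were 10.6 to 46.6 with a median of 20.6 in young and 16.9 to 45.2 with a median of 27.4 in aged rats. The young range was set by rat R9881 at 46.6, above every aged library, and the next young library had 25.2. The DG log2 change was 0.40 (p = 0.0192) with 0.49 in the Ion Proton table (one-sided p = 0.00749). Without rat R9881 it was 0.53 and passed, with a limma adjusted p of 0.129. In the WT table it was 0.61 and passed with the Ion Proton retest (limma p = 0.0019, adjusted p = 0.363).

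In CA1 Nlrc5 had 22.4 ± 7.31 in young and 30.1 ± 11.1 in aged rats, a log2 change of 0.39 (p = 0.0295). The Ion Proton values there were 20.5 ± 8.72 and 36.8 ± 15.8, a log2 change of 0.85 (p = 0.00262), and 13 of 24 aged libraries exceeded every young one. In CA3 the means were 29.5 ± 13.2 and 37.5 ± 18.9 (log2 change 0.32, p = 0.133), and without R9876 the change was 0.40 (p = 0.0635).

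Microglia markers moved with age beside these genes. All 12 markers had higher mean log2 values in aged rats, with list medians of 0.26 in DG, 0.27 in CA1 and 0.22 in CA3, and 8, 6 and 2 of 12 (in CA3 Trem2 and Cx3cr1) rose by the rule above. Their summed level in DG was 4776 to 7006 (median 5883) in young and 5270.4 to 8759 (median 6764) in aged rats. In CA1 it was 5867 to 8607 (median 6762) and 6109 to 10770.3 (median 7995), in CA3 6028 to 8098 (median 6740.4) and 6450.3 to 15134 (median 7897), and no marker was at 0 in the median library. The part of microglia in the class I values was not tested. In CA3 of impaired rat R2238, the summed microglia level was the highest of 34 libraries (15134 against a median of 7572), and Tap1 (182), Psmb8 (110.1) and Psmb9 (111) were also the highest of the subfield.

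Markers of T and NK cells, which read class I molecules, summed to 4.93 to 84.0 (median 12.8) in DG of young and 4.58 to 121 (median 14.2) in DG of aged rats, and 8 and 9 of the 12 genes were at 0 in the median library. In CA1 the sums were 15.4 to 147 (median 80.2) and 7.64 to 228 (median 52.3), and Cd3e, the T cell gene that reached the minimum mean there and in DG, did not pass. Lists for perivascular macrophages, endothelium, oligodendrocytes, neurons, leptomeninges, choroid plexus and blood had 0 genes past the limma rule in any subfield, and the astrocyte list had 1 in each, Gfap, the intermediate filament gene of astrocytes (0.41 in DG, 0.44 in CA1 and 0.45 in CA3). Choroid plexus markers had median aged minus young log2 changes of 0.72 in CA1 (5 of 5 genes higher) and -0.57 in CA3 (0 of 5), with CA1 sums of 13.7 to 1658 (median 344) in young and 6.09 to 151733 (median 237) in aged rats and 2 of 7 identifiers at 0 in the median library. Their CA3 sums were 46.9 to 12730.0 (median 233) and 49.9 to 2948 (median 318). Blood markers had median changes of 0.35 in DG, 0.45 in CA1 and 0.20 in CA3, with 4 of 4 genes higher in each and CA1 sums of 662 to 2995 (median 1394) and 574 to 6827 (median 2046). Perivascular macrophage markers had a median change of -0.37 in CA3 (0 of 4 higher) and of 0.049 without R9876 (2 of 4 higher), with sums of 57.5 to 1253 (median 94.2) and 52.7 to 223 (median 93.3). Leptomeningeal markers had a median log2 change of -0.47 in CA3, with sums of 410.0 to 26469.6 (median 794) in young and 359.8 to 2460.4 (median 679) in aged rats. The highest young CA3 library of the leptomeningeal list is that of R9876, and without it the median change was -0.032. Without R9876 the CA3 medians were 0.048 for endothelium (-0.13 with it), -0.48 for choroid plexus (4 genes tested) and 0.44 for blood. They were -0.15 for oligodendrocytes (-0.027 with it) and -0.083 for neurons (-0.023). Dentate granule cell markers had a median change of 0.38 in CA3 (4 of 4 higher), and of 0.43 without R9876. In CA3, CA1 pyramidal markers had 0.11 (2 of 4 higher) and CA3 pyramidal markers 0.14 (3 of 5). Without R9876 these were 0.18 and -0.013, and 0 genes of the subfield lists passed. The part of these cell types in the class I values was not tested. The MHC class II list, which serves CD4 T cells, had 4 genes above the minimum mean (Cd74, RT1-Ba, RT1-Da and RT1-Db1), of which 4 rose in DG, 3 in CA1 (RT1-Ba did not pass) and 4 in CA3, with median log2 changes of 1.97, 1.68 and 1.86.

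Whether the age change differed between subfields was tested with an interaction term in limma over all libraries of the table. 0 of 7 members reached an adjusted p of 0.05, as did 0% of the 14179 genes tested, and edgeR and DESeq2 also called 0 members. At an unadjusted p under 0.05, 2 members had a lower age change in CA3 than in DG, against 0.776% of genes. They were Psmb9, with a difference of -0.57 (95% interval -1.02 to -0.12, p = 0.0137), and Tap1, with -0.32 (p = 0.0297). Without the CA1 library of R9780 and the CA3 library of R9876 they were -0.44 (p = 0.0496) and -0.24 (p = 0.0967). Over all Ion Proton libraries the differences were -0.55 (p = 0.295) and -0.35 (p = 0.235). At that level, 0 members differed between CA1 and CA3 (against 1.93% of genes) or between CA1 and DG (0.353%), so the absence of calls in CA3 is not shown to be a difference from DG or CA1. With the rat as a replicate block, Tapbp differed between CA1 and CA3 at that level (0.17, limma p = 0.0461). For CA3 minus DG with the block, the limma p was 0.00878 for Psmb9 and 0.0173 for Tap1. None of these reached an adjusted p of 0.05.

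Each inducible subunit takes the place of 1 constitutive subunit, so the log2 ratio of the pair was taken in every library and described without a test. The ratio of Psmb9 to Psmb6 in DG was -4.38 ± 0.41 in young and -3.78 ± 0.33 in aged rats, and 23 of 24 aged libraries lay above the young median. Aged minus young it came to 0.60 in DG (0.56 in the Ion Proton table), 0.41 in CA1 (0.070) and 0.085 in CA3 (0.20). The WT table gave 0.34 in DG, 0.27 in CA1 and 0.20 in CA3. Of the Ion Proton libraries a single one in each of these subfields was far below the others, that of an unimpaired rat in CA1 (-9.32) and that of an impaired rat in CA3 (-9.89, with 0 reads of Psmb9). Without them the differences were 0.29 in CA1 and 0.44 in CA3, and the Illumina difference in CA3 without its lowest library was 0.13. The ratio of Psmb8 to Psmb5 differed by 0.41 in DG, 0.50 in CA1 and 0.25 in CA3, and by 0.36, 0.62 and 0.49 in the Ion Proton table, where the CA3 difference was 0.28 without the lowest library, a young one. In the WT table it differed by 0.40, 0.21 and 0.18. The ratio of Psmb10 to Psmb7 differed by 0.036 in DG, 0.12 in CA1 and 0.072 in CA3, and by -0.10, -0.0076 and 0.020 in the Ion Proton table. The WT values were -0.014, 0.086 and 0.072. Without the lowest library of each, the Illumina differences of this ratio were 0.059, 0.091 and 0.033, and the Ion Proton ones -0.19, 0.075 and 0.057. In CA3 the highest young Illumina ratio of Psmb9 to Psmb6 was -2.55, against a young median of -3.81. It was -3.70 (median -5.21) for Psmb8 to Psmb5 and -1.73 (median -2.44) for Psmb10 to Psmb7. Differences without the highest library were not taken.

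The constitutive partners themselves did not pass the age rule in any subfield. In DG, Psmb5 had 997 ± 90.9 in young and 981 ± 90.7 in aged rats. Psmb6, whose values were summed over its 2 identifiers, had 586 ± 51.5 in young and 575 ± 47.2 in aged rats, and Psmb7 had 1448 ± 111 in young and 1383 ± 125 in aged rats. The ratios are of values with 1 added, so those of weakly read genes still depend on the scaling of a library. They move with either partner, and values of different genes are not compared as levels here, since gene lengths were not used.

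**Figure D3:**
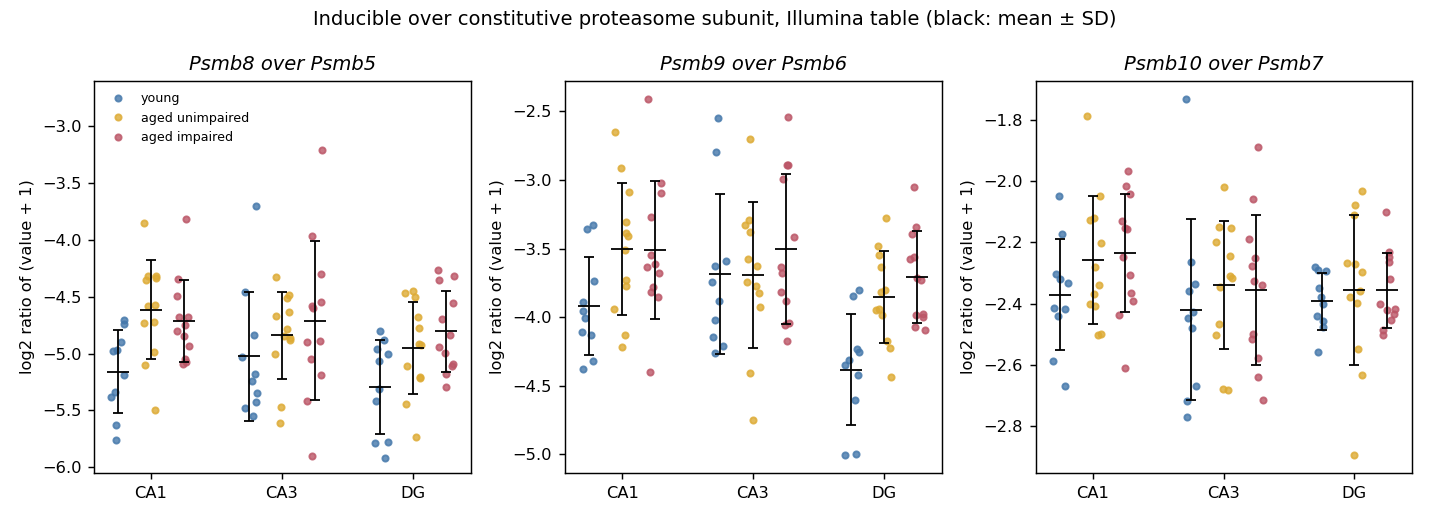
Log2 ratio of each inducible proteasome subunit to the constitutive subunit it replaces, in every Illumina library by subfield and group, with mean and SD. The Psmb9 to Psmb6 ratio in DG averages -4.38 in young and -3.78 in aged rats, while the Psmb10 to Psmb7 ratio differs by 0.036.

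The next comparison asked whether the class I genes differed between aged impaired and aged unimpaired rats. None of the 7 tested members passed the rule in any subfield, where 0.62% of genes passed in CA1, 0.0211% in CA3 and 0.121% in DG. The median impaired minus unimpaired log2 change of the members was 0.037 in DG, 0.0085 in CA1 and 0.11 in CA3, beside -0.0021, -0.0036 and -0.0019 over all genes. limma, edgeR and DESeq2 each called 0 members, and at an unadjusted limma p under 0.05 there were 1 in DG (against 3.85% of genes), 1 in CA3 (1.4%) and 0 in CA1 (5.71%). Both were Tapbp, with opposite signs.

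In DG, Tapbp had 208 to 298 with a median of 237 in unimpaired and 194 to 262 with a median of 217 in impaired rats, so the ranges overlapped. The impaired minus unimpaired log2 change was -0.16 (95% interval -0.27 to -0.038, p = 0.0119, limma adjusted p = 0.999) and -0.12 in the Ion Proton table (p = 0.241). In CA3 the means were 201 ± 23.4 and 226 ± 26.6, a log2 change of 0.17 (p = 0.028). Nlrc5 in CA3 had 31.2 ± 6.95 in unimpaired and 43.8 ± 24.7 in impaired rats, a log2 change of 0.34 with a 95% interval of -0.11 to 0.79, which includes 0. In DG, dentate granule cell markers had a median impaired minus unimpaired change of -0.33 (0 of 4 higher). CA1 pyramidal markers had -0.26 (1 of 4), CA3 pyramidal markers 0.22 (5 of 5) and endothelial markers 0.12 (8 of 8). Their part in the Tapbp change was not tested.

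For Tap1 the impaired minus unimpaired log2 change was 0.0085 in CA1 (95% interval -0.23 to 0.25) and -0.11 in DG (-0.29 to 0.080). Psmb9 in DG had 39.5 ± 7.93 in unimpaired and 43.6 ± 8.65 in impaired rats, a change of 0.14 (-0.097 to 0.38). For B2m the change was 0.040 in CA1 (-0.14 to 0.22), -0.019 in CA3 (-0.22 to 0.18) and 0.067 in DG (-0.072 to 0.21). All of these intervals contain 0, which does not show that the groups were alike.

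Each aged group was also set against the young rats, side by side because both comparisons use the same 10 young rats. Tap1 in DG had 73.6 ± 14.3 in young, 101.8 ± 18.7 in unimpaired and 93.8 ± 11.8 in impaired rats. In DG, Tap1 and Psmb9 rose in unimpaired rats (2 of 7 members, against 0.514% of genes), by 0.47 (p = 0.000417) and 0.50 (p = 0.00206) on the log2 scale. In impaired rats Psmb9, Psmb8 and Tap1 rose in DG (3 of 7, against 0.827%), by 0.65 (p = 0.000137), 0.45 (p = 0.008) and 0.36 (p = 0.00164). The limma adjusted p was at least 0.0905 for each of these. In CA1, Psmb8 and Tap1 rose in unimpaired rats (2 of 7, against 0.501%), by 0.45 and 0.34, and Tap1 rose in impaired rats (1 of 7, against 0.671%), by 0.34. Without the CA1 library of R9780, Psmb8 alone passed in CA1 of unimpaired rats, and Tap1 had a limma p of 0.0141. A pseudocount of 0.1 and no filter also each left 1 of 7 there, against 0.572% and 0.421% of genes in either direction. In CA3 0 of 7 passed in either group (against 0.337% and 0.224%), 0 had a limma p under 0.05 (against 3.3% and 2.46%), and edgeR and DESeq2 called 0. Tap1 in DG of unimpaired rats was at -0.0021 against young rats in the WT table, where 0 members passed in DG of unimpaired rats and 1, Nlrc5, in DG of impaired rats. The CA1 calls in both groups were lost in the WT table, without the deeply sequenced rats and within each number series. Below 9000 and from 9000 up, Tap1 in CA1 was at 0.39 and 0.29 in impaired rats. In unimpaired rats Tap1 was at 0.26 and 0.41, and Psmb8 at 0.27 and 0.62. Among rats from 9000 up 0 members passed in DG in either group, and below 9000 Tap1 alone passed in DG of unimpaired rats. From 9000 up, Tap1 and Psmb9 were at 0.24 and 0.39 in DG of unimpaired rats. In DG of impaired rats of that series, Tap1, Psmb8 and Psmb9 were at 0.12, 0.52 and 0.59. Without the deeply sequenced rats 1 member passed in DG of unimpaired rats and 2 in DG of impaired rats, where Psmb8 was lost. Without the 11 libraries nearer to another subfield, unimpaired rats had 0 calls in CA1 and 1 in DG, and impaired rats had 2 in DG, Psmb8 again being lost. In CA3 without R9876, B2m had a p of 0.00224 in unimpaired rats, and in impaired rats Tap1 had 0.0446 and Nlrc5 0.041 (limma), while again 0 passed the rule. In DG of impaired rats below 9000 the genes that passed were B2m and Psmb9.

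The third comparison asked where in the hippocampus the class I genes were high. Tap1, Psmb9 and Nlrc5 were higher in CA3 than in DG, and no member differed by the rule between CA1 and CA3 or between CA1 and DG. With the rat as a replicate block, Psmb9 and Tap1 also passed in CA1 against DG, as 2 of 7 members in place of 0. This is near the share over all genes with the block, 29.2% in either direction. A member was called when its limma adjusted p was under 0.05 with the same sign in both poly-A tables. In CA3 against DG 3 of 7 members were higher, against 13.9% of 14179 genes. In CA1 against DG 0 of 7 were called, against 26.4% of genes in either direction, and in CA1 against CA3 0 of 7, against 14.1%. In the Illumina table alone, 4 members were higher in CA3 than in DG (28.9% of genes), 2 higher in CA1 than in DG (29%) and 1 higher in CA1 than in CA3 (18.3%). For CA1 against CA3, edgeR and DESeq2 on the recovered reads also called 0, and for CA1 against DG each called 1, Psmb9.

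For Psmb9 the order was CA3, CA1 and DG, with 51.3 ± 20.9, 49.0 ± 18.7 and 37.6 ± 10.2 over 34 rats, and CA3 exceeded DG in 23 of 34 rats. The CA3 minus DG log2 difference was 0.40 (95% interval 0.18 to 0.62, limma adjusted p = 0.00139), and 0.67 in the Ion Proton table (adjusted p = 0.0253). Its CA1 minus DG difference of 0.35 (limma adjusted p = 0.0046) met an Ion Proton adjusted p of 0.054, and without the 11 libraries nearer to another subfield it was called (limma adjusted p = 0.0158, Ion Proton 0.0422). With a pseudocount of 0.1 the CA3 minus DG call was lost (Ion Proton adjusted p = 0.121). CA1 and CA3 did not differ beyond their spread (-0.044, 95% interval -0.26 to 0.18).

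Tap1 had 103 ± 23.6 in CA3, 101.8 ± 22.4 in CA1 and 90.7 ± 18.9 in DG, and CA3 exceeded DG in 23 of 34 rats. The CA3 minus DG log2 difference was 0.17 (95% interval 0.028 to 0.32, limma adjusted p = 0.0369) and 0.42 in the Ion Proton table (adjusted p = 0.0194). It was lost under edgeR (adjusted p = 0.0598), with no filter on low values, with quantile normalisation and in the WT table, and without the CA3 library of R9876 and the CA1 library of R9780 (limma adjusted p = 0.0627). Values of Tap1 in CA1 exceeded those in DG in 26 of 34 rats, by 0.16 (limma adjusted p = 0.0525).

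Nlrc5 followed the same order, with 35.1 ± 17.6 in CA3, 27.8 ± 10.6 in CA1 and 26.3 ± 8.80 in DG. CA3 exceeded DG in 25 of 34 rats and CA1 in 25. The CA3 minus DG log2 difference was 0.36 (95% interval 0.11 to 0.60, limma adjusted p = 0.0109) and 0.47 in the Ion Proton table (adjusted p = 0.0183). The CA1 minus CA3 difference was -0.29 (adjusted p = 0.0593), and CA1 and DG did not differ beyond their spread (0.068, 95% interval -0.18 to 0.31). With the rat as a replicate block, the CA1 minus CA3 difference had a limma adjusted p of 0.0302, and of 0.35 in the Ion Proton table. Quantile normalisation took the calls of Nlrc5 and Tap1, leaving 1 of 7.

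The rat as a replicate block pairs the 3 subfields of an animal. With it, 2 members were higher in CA1 than in DG in place of 0, against 29.2% of genes called in either direction. The members were Psmb9 (limma adjusted p = 0.00265, Ion Proton 0.0442) and Tap1 (limma adjusted p = 0.0137, Ion Proton 0.0331). The summed level of the 12 microglia markers was also lower in DG, with medians of 5883 in young and 6764 in aged rats against 6740.4 and 7897 in CA3 and 6762 and 7995 in CA1, and its part in these differences was not tested.

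B2m had 4865 ± 964 in CA3, 4848 ± 841 in CA1 and 4043 ± 575 in DG, and CA1 exceeded DG in 32 of 34 rats. Its CA1 minus DG log2 difference was 0.26 (limma adjusted p = 9.30e-05), but 0.018 in the Ion Proton table, where CA1 exceeded DG in 21 of 34 rats. CA3 minus DG was 0.26 (limma adjusted p = 7.93e-05) against 0.058. The difference between these tables for the same RNA was not tested. CA1 and CA3 did not differ beyond their spread (-0.0009, 95% interval -0.11 to 0.11).

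Tapbp was the member with an Illumina difference between CA1 and CA3 in the fit without a block, at 243 ± 29.8 in CA1, 227 ± 23.1 in DG and 215 ± 30.2 in CA3. The CA1 minus CA3 log2 difference was 0.18 (limma adjusted p = 0.000294) with CA1 above CA3 in 27 of 34 rats, and 0.18 in the Ion Proton table (adjusted p = 0.181). Neighbours in that order differed by 0.092 (CA1 minus DG, adjusted p = 0.0531) and -0.087 (CA3 minus DG, adjusted p = 0.0664). Psmb8 had 36.6 ± 16.9 in CA3, 36.3 ± 10.4 in CA1 and 30.9 ± 8.47 in DG, with no adjusted p under 0.05 in the fit without a block. With the rat as a replicate block, its CA1 minus DG difference of 0.23 had a limma adjusted p of 0.025, and of 0.0745 in the Ion Proton table. Psmb10 had 272 ± 29.7 in DG, 269.7 ± 34.3 in CA3 and 263 ± 31.9 in CA1, with no Illumina call and an Ion Proton CA1 minus DG difference of -0.37 (adjusted p = 0.00347).

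**Figure D4:**
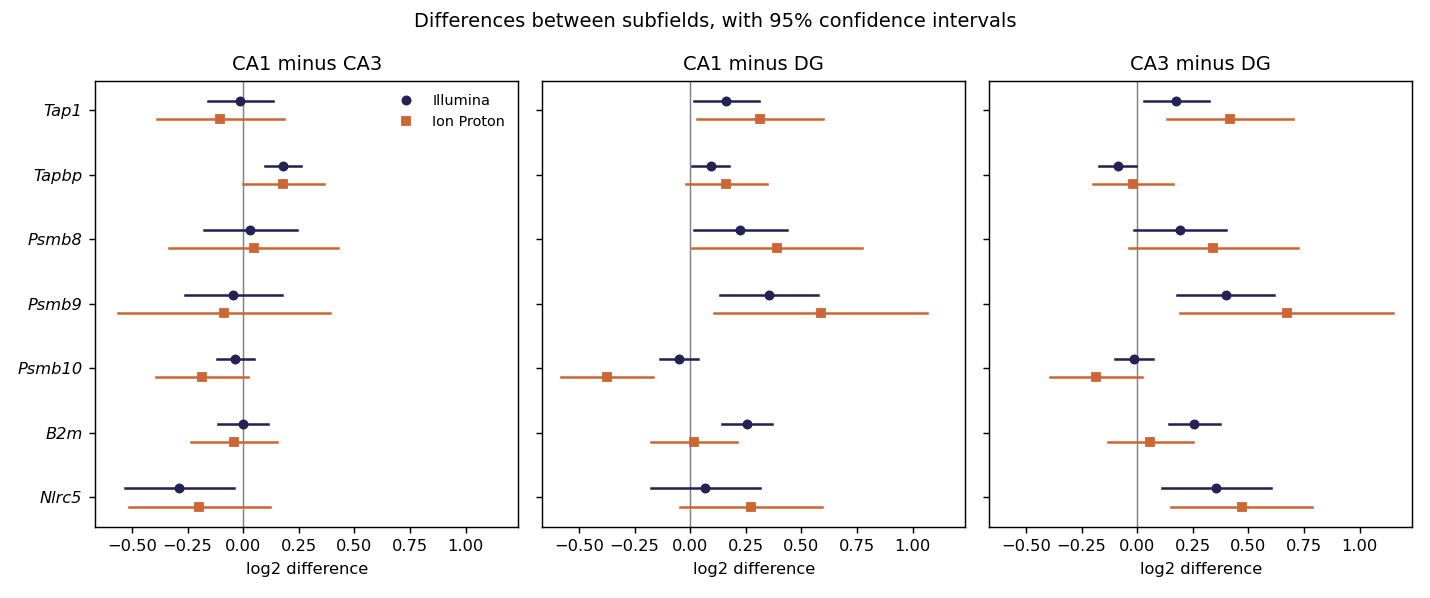
Log2 difference between subfields (CA1 minus CA3, CA1 minus DG and CA3 minus DG) of the 7 tested class I genes with 95% confidence intervals, in the Illumina and the Ion Proton table (34 rats). For CA3 minus DG, Psmb9 lies at 0.40 and 0.67 in the respective tables, and B2m at 0.26 and 0.058.

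Genes that work with the members were described by list from the same age fits. Among the heavy chains that pair with B2m to form class I, 17 of 27 listed genes reached the minimum mean, and 1 rose in DG and in CA1, RT1-CE16. It had 283 ± 51.7 in young and 413 ± 141 in aged rats in CA1, a log2 change of 0.50 (limma p = 0.00118, adjusted p = 0.162). In DG it had 248 ± 55.5 in young and 314 ± 55.0 in aged rats, a change of 0.35 (limma p = 0.000941, adjusted p = 0.15). In CA3 the change of 0.26 (0.37 without R9876) did not pass. RT1-A1 (0.34 in DG, p = 0.0494) and RT1-A2 (0.29) did not pass. The list median was 0.22 in DG, 0.34 in CA1 and 0.17 in CA3 (0.23 without R9876), with 15, 14 and 13 of 17 above 0. Heavy chain genes share near-identical stretches, so how the authors' counting divided reads between them is uncertain.

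Transcription factors of the class I promoter had 15 of 16 genes tested, of which 2 rose in DG and 1 in CA1. Irf8, an interferon regulatory factor of myeloid cells, had 54.1 ± 9.28 in young and 70.5 ± 13.7 in aged rats in DG, a log2 change of 0.37 (p = 0.000759). In CA1 it had 68.0 ± 13.1 in young and 92.1 ± 18.5 in aged rats, a change of 0.43 (p = 0.000358). Irf1, an interferon-induced activator, rose in DG from 132 ± 11.9 to 147 ± 12.5, by 0.16 on the log2 scale (p = 0.0025). Stat2 (0.096 in DG) and Rfx5 (-0.035) did not pass. The list median was 0.031 in DG, 0.055 in CA1 and -0.0028 in CA3 (0.049 without R9876).

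The remaining pathway lists had 0 genes past the age rule in limma. Peptide loading and trimming partners (12 genes, with the chaperones Canx, Calr and Hspa5) had median log2 changes of -0.016 in DG, 0.0088 in CA1 and -0.014 in CA3. The other 20S core subunits (11 genes, with Psmb4, Psmb1 and Psma7) had -0.043 in DG, -0.027 in CA1 and -0.077 in CA3, and the 19S ATPases (6 genes, with Psmc5, Psmc1 and Psmc3) had -0.022 in DG, -0.0044 in CA1 and -0.040 in CA3. Proteasome activators and assembly factors (7 of 8 genes tested, with Psme3, Psme4 and Psme1) had -0.020 in DG, 0.057 in CA1 and -0.0013 in CA3 (0.0074 without R9876, with 4 of 7 above 0 in place of 3). Psme1, a chain of the interferon-inducible 11S activator, was at 0.19 in CA1 (p = 0.00769) in the Illumina table and at 0.014 in the Ion Proton table. Other partners of B2m (4 genes, with Fcgrt, Hfe and Mr1) had 0.024 in DG, 0.088 in CA1 and -0.075 in CA3 (0.047 without R9876, with 3 of 4 above 0 in place of 1), and interferon receptors with their Jak kinases (7 genes, with Jak1, Ifnar1 and Ifngr2) had 0.0020 in DG, 0.031 in CA1 and -0.020 in CA3 (-0.0017 without R9876). Between impaired and unimpaired rats, 0 genes of any of these pathway lists passed.

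**Figure D5:**
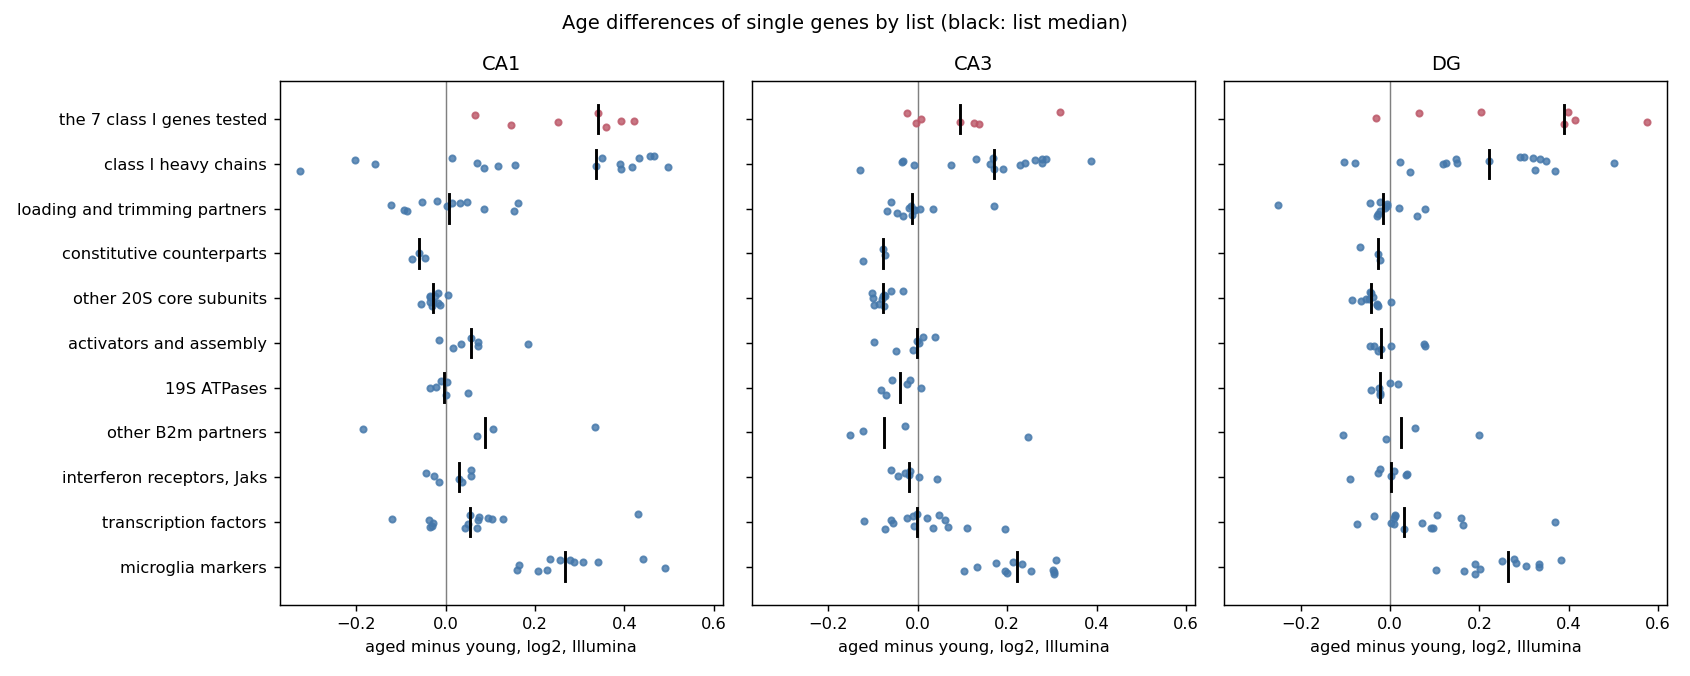
Aged minus young log2 change of single genes, grouped by list, in the 3 subfields of the Illumina table, with a bar at each list's median. The class I genes (0.39 in DG), heavy chains (0.22) and microglia markers (0.26) have medians above 0, and the medians of the proteasome core and ATPase lists lie at -0.043 and -0.022.

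Across the 34 rats of a subfield, the 21 pairs of tested members had a median Pearson correlation of 0.38 in DG, 0.53 in CA1 and 0.49 in CA3 of the Illumina table, and of 0.10, 0.034 and 0.18 in the Ion Proton table. In CA1, CA3 and DG, B2m with Tap1 had 0.71, 0.49 and 0.44 in the Illumina table. The Ion Proton table gave this pair -0.45, -0.33 and -0.30. There B2m had -0.56, -0.32 and -0.20 with Tapbp, and 0.42, 0.18 and 0.64 with Psmb10. These are descriptions over libraries that share depth, dissection and age groups. The same gene in both tables had a correlation across rats of 0.51, 0.69 and 0.52 for Tap1 in CA1, CA3 and DG, of 0.58, 0.49 and 0.59 for B2m, and of 0.33, 0.36 and 0.14 for Psmb9. Genes whose pattern over rats was most like the mean of the members, among 14153 genes and averaged over the subfields, were C2 (r = 0.79), RT1-CE16 (0.74), Ifi30 (0.74), Ctsz (0.73) and Unc93b1 (0.73). In the Ion Proton table RT1-CE16 had rank 2 of 15273 genes (0.71), while Ctsz had rank 27 (0.60), Unc93b1 rank 44 (0.57) and Ifi30 rank 344 (0.44). C2 was not among the genes tested there.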

How the data were processed

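RNA of CA1, CA3 and DG of 34 rats had been sequenced in 3 tables, with 34 libraries per subfield in each. The deposited values are a normalised signal: the authors counted reads per gene and divided each library by its DESeq2 size factor. Per the study's methods and the labels, Illumina poly-A reads were trimmed with CutAdapt (version 1.8.3), aligned to rn5 with STAR (2.5) and counted with featureCounts (1.4.4), and Ion Proton reads were aligned with TopHat2 and Bowtie2. The labels and the methods name different TruSeq kits, so it is unknown whether counting used strand, and reads of antisense or overlapping genes may be mixed. The library type of the WT table is not given in the sources used here, and it served as an alternative only. Tables were normalised separately and tested separately.

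Values were whole multiples of 1 read (100% of values within a relative tolerance of 0.001), and depths are sums of these recovered reads. limma (version 3.58.1, R 4.3.3) with a variance trend was applied to log2(value + 1) of genes whose mean over the libraries of a fit was 10 or more, and p-values were adjusted over all genes by Benjamini-Hochberg. Age compared 24 aged with 10 young libraries per subfield, cognition 12 impaired with 12 unimpaired, and subfields and interactions used all libraries of a table. The age rule (p under 0.01, then one-sided p under 0.05 in the Ion Proton table) is that of the study, which used DESeq2. Replicates are separate rats. Every column matched 1 label.

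Subfields of 1 rat come from the same animal, so a fit with the rat as a replicate block was run beside the subfield fit. Deviations from group means correlated between subfields of a rat with medians of 0.087 (CA1 and CA3), 0.19 (CA1 and DG) and -0.032 (CA3 and DG) over 34 rats. Alternatives were a pseudocount of 0.1, no filter, quantile normalisation, edgeR (4.0.16) and DESeq2 (1.42.0) on the recovered reads, the WT table, number series as covariate or alone, each rat left out in turn, and omission of libraries nearer to another subfield, of 7 deeply sequenced rats, or of CA1 of rat R9780 with CA3 of rat R9876.

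Members and lists of genes were chosen with earlier results of these data known, and some lists come from an earlier analysis of them. Named genes were all members, the constitutive partners Psmb5, Psmb6 and Psmb7, and, per list, the 3 with the highest mean value and those past the age rule, of which 1 gene is not reported here. A gene with 3 reads or fewer in a library was taken as at the floor, and depth limits cover counting error only. Promoters came from RefSeq (GRCr8), and symbols and identifiers from the tables. Fits were tested on simulated data.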

Additional observations from a re-analysis of the deposited data

Results flagged for a closer look

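In groups of 10 young rats, a library was singled out when its gap to the next one, divided by the group's range, exceeded 0.466, which chance does in a small share of groups. Of 48 groups examined, 9 had such a library, each the highest of its group. In CA3 of the Illumina table, young rat R9876 stood apart for B2m (gap 0.712 of the range, 7775 against 4890.4 for the next rat), Tapbp (0.636, 314 against 229), Psmb8 (0.566, 74.0 against 45.4) and Psmb10 (0.532, 345 against 285). That library also had the highest summed leptomeningeal (26469.6, median 687) and endothelial (9334, median 2587) levels of the 34 in CA3, while its microglia sum of 7440.3 had rank 18. Their part in its class I values was not tested.

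In DG, young rat R9881 stood apart for Nlrc5 (0.595, 46.6 against 25.2) and B2m (0.571, 5015 against 3906). In DG of the Ion Proton table, young rat R2221 stood apart for both Tap2 identifiers, ENSRNOG00000000455 (0.554, 109.5 against 60.0) and ENSRNOG00000046031 (0.515, 92.0 against 60.0), and for Psmb8 (0.486, 18.6 against 13.5).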

How the results depend on the processing

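Members called for age in CA1 (1) came to 2 with quantile normalisation, edgeR or DESeq2, and to 0 in the WT table, without the deeply sequenced rats and below 9000. In DG (2, Tap1 and Psmb9) they came to 3 with edgeR and DESeq2, where Psmb8 joined, and to 1 in the WT table (Nlrc5) and from 9000 up (Psmb8), and the 2 below 9000 were B2m and Tap1. From 9000 up the 1 gene called in CA1 was Tapbp, not Tap1. For unimpaired against young rats, CA1 (2) gave 1 with a pseudocount of 0.1, with no filter and without CA1 of rat R9780 and CA3 of rat R9876, and 0 in the WT table, without libraries nearer to another subfield, without the deeply sequenced rats and in each number series. DG (2) gave 0 in the WT table and from 9000 up, and 1 without libraries nearer to another subfield, without the deeply sequenced rats and below 9000. For impaired against young rats, CA1 (1) gave 0 in the WT table, without the deeply sequenced rats and in each number series, and DG (3) gave 1 in the WT table (Nlrc5), 0 from 9000 up, 4 with the series covariate (B2m joined) and 2 with quantile normalisation, without libraries nearer to another subfield, without the deeply sequenced rats (Tap1 and Psmb9 in each) and below 9000 (B2m and Psmb9). For CA1 minus DG (0), edgeR, DESeq2 and omission of the libraries nearer to another subfield or of the deeply sequenced rats each gave 1, and CA3 minus DG (3) gave 1 with quantile normalisation and 2 with a pseudocount of 0.1, with no filter, with edgeR, in the WT table and without CA1 of R9780 and CA3 of R9876. This last setting was added for subfields, their interaction with age and the gene lists after the data were seen, as was the omission of the library with the lowest subunit ratio. The change of Tap1 in DG of unimpaired against young rats was lost in the WT table (-0.0021, limma p = 0.992, adjusted p = 0.998). In the Ion Proton table the age difference of the Psmb10 to Psmb7 ratio in DG was -0.10 (main 0.036), and the mean correlation of the 4 genes most like the members that both tables list was 0.58 (main 0.74). The cause of these changes was not tested.

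With the rat as a replicate block, 2 members in place of 0 were called in CA1 minus DG, against 29.2% of genes. The block changed no other count of members called in both poly-A tables. In the Illumina table alone, Tap1 and Psmb8 joined in CA1 minus DG (limma adjusted p = 0.0137 and 0.025). Nlrc5 joined in CA1 minus CA3 (limma adjusted p = 0.0302). Age and cognition compare different rats, so no pairing applies there.

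With each rat left out in turn, members called for age were 1 to 2 in CA1, 0 to 0 in CA3 and 2 to 3 in DG, and 0 to 0 for cognition. Psmb9 in DG kept log2 changes of 0.51 to 0.64 (limma adjusted p 0.00535 to 0.0635), Tap1 in DG 0.36 to 0.46 (0.00947 to 0.108) and Tap1 in CA1 0.30 to 0.39 (0.0588 to 0.51). In CA3 the changes ran from 0.11 to 0.22 for B2m, -0.052 to 0.037 for Tapbp and -0.028 to 0.035 for Psmb10. Nlrc5 had 0.24 to 0.43 there. Psmb8 passed in DG without rat R2185, R2221, R2231, R2233, R2237, R2238 or R9869.

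Numbers of genes called over the whole table moved by more than 1.5 times as follows. For age, CA1 went from 118 to 187 with number series as covariate. CA3 went from 56 to 157 with edgeR, 100 with DESeq2, 87 with the covariate, 35 below 9000 and 120 from 9000 up, and DG from 150 to 92 in the WT table, 93 below 9000 and 88 from 9000 up. For cognition, CA1 went from 88 to 44 without the deeply sequenced rats and 32 below 9000, CA3 from 3 to between 0 and 15, and DG from 17 to between 5 (below 9000) and 111 (from 9000 up). For unimpaired against young rats, CA1 went from 86 to between 36 and 160, CA3 from 55 (0.386% of genes tested) to 0.184% below 9000 and 0.716% from 9000 up, and DG from 87 to between 44 and 50. For impaired against young rats, CA1 went from 171 to 29 from 9000 up, CA3 from 39 to between 67 and 114, and DG from 133 to 204 with the covariate and 87 below 9000.

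Illumina depth limits Tap2, whose identifiers had 3 reads or fewer in 22 and in all of the libraries. It entered the Illumina comparisons only with no filter on low values, where it passed in none for age.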
